A study of Mus musculus with 5 samples.

Results

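The amino acid transporter families Slc1, Slc3, Slc6, Slc7, Slc36, Slc38 and Slc43 were examined in whole-kidney RNA of C57BL/6J mice. Members were the genes whose symbol, in the GENCODE M21 annotation, carries 1 of these family numbers followed by the letter a and a plain number, and whose counts summed to at least 10 over the 5 libraries. Of 61 genes matching the names, 48 met the count minimum, out of 54532 gene IDs in the table. The families contain transporters of amino acids together with relatives that carry taurine, creatine, monoamines or nucleobases.

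All mice were wild-type males of 8 weeks and the inbred strain C57BL/6J. The DMXAA group (n = 2 samples) received 10 mg/kg of DMXAA, a small molecule that activates mouse STING, by intraperitoneal injection once a day for 3 days. The vehicle group (n = 3 samples) received injections without the drug on the same schedule, and kidneys were taken on day 3. The comparison asks which transcripts differed in the kidney after DMXAA. Whether the numbered samples are different animals is not in the labels, and p-values therefore refer to the spread among these 5 samples, which may be technical.

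The kidney recovers almost all filtered amino acids in the proximal tubule. Sodium-coupled carriers of the brush border take up neutral amino acids from the filtrate, and a heteromeric exchanger, built from a heavy chain that brings it to the membrane and a light chain that transports, takes up cystine and basic amino acids. A second set of heteromers and uniporters on the basolateral side passes amino acids on to the blood. Transporters of other families supply glutamine for ammonia formation, or taurine, betaine and creatine as osmolytes and energy buffers.

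Total counts were 18176586 and 20264228 in the DMXAA libraries and 17667490 to 18552912 in the vehicle libraries. Members took 0.547% and 0.535% of the counts in the DMXAA libraries and 0.469% to 0.509% in the vehicle libraries. Vehicle library 1 stood apart. Its 8 adipose markers summed to 239 CPM (read counts scaled to a common library size), against 2.05 and 3.58 CPM in the DMXAA libraries and 3.24 and 6.88 CPM in vehicle libraries 2 and 3. Its 7 urothelial markers summed to 118 CPM, against 2.45 to 13.1 CPM in the other 4 libraries. Its 8 collecting duct markers summed to 1360 CPM, against 736 to 828 CPM. Most of that sum was Aqp2, at 774 CPM, against 217 to 327 CPM in the other 4 libraries. Aqp3 and Aqp4 were also highest in vehicle library 1. Scnn1g, Avpr2 and Atp6v1b1 were lowest there, and Slc4a1 and Slc26a4 lay within the range of the other libraries. In bulk RNA fewer cells of a type and less RNA per cell cannot be told apart.

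No member was called. The quasi-likelihood test of edgeR, adjusted over 16226 genes, called 0 of the 41 members that passed the expression filter, with a smallest adjusted p of 0.688, beside 0% of all genes tested. DESeq2 also called 0 members (smallest adjusted p = 0.153), beside 0.296% of the genes it tested. At an unadjusted p below 0.05 edgeR counted 5 members, or 12.2%, beside 6.55% of all genes. The 5 were Slc43a3, Slc7a8 and Slc6a19 with higher values in DMXAA and Slc1a4 and Slc1a5 with lower ones. The median log2 fold change (DMXAA over vehicle) was 0.01 over the members that passed and -0.02 over all genes tested. Estimates were above 0 in 22 of the 41 (53.7%), beside 46.9% of all genes. Both DMXAA libraries lay outside the range of the 3 vehicle libraries in 13 members, or 31.7%, beside 26% of all genes; 6 of these were above the vehicle range (13.7% of all genes) and 7 below it (12.3%).

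The differences that these 5 libraries leave possible were bounded for most members. The 95% interval of the fold change lay within 2-fold in either direction for 33 of the 41 members and within 1.5-fold for 17. Intervals were widest for rare transcripts, such as Slc38a11 and Slc1a3. The plot of fold changes by role shows these intervals.

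**Figure D1:**
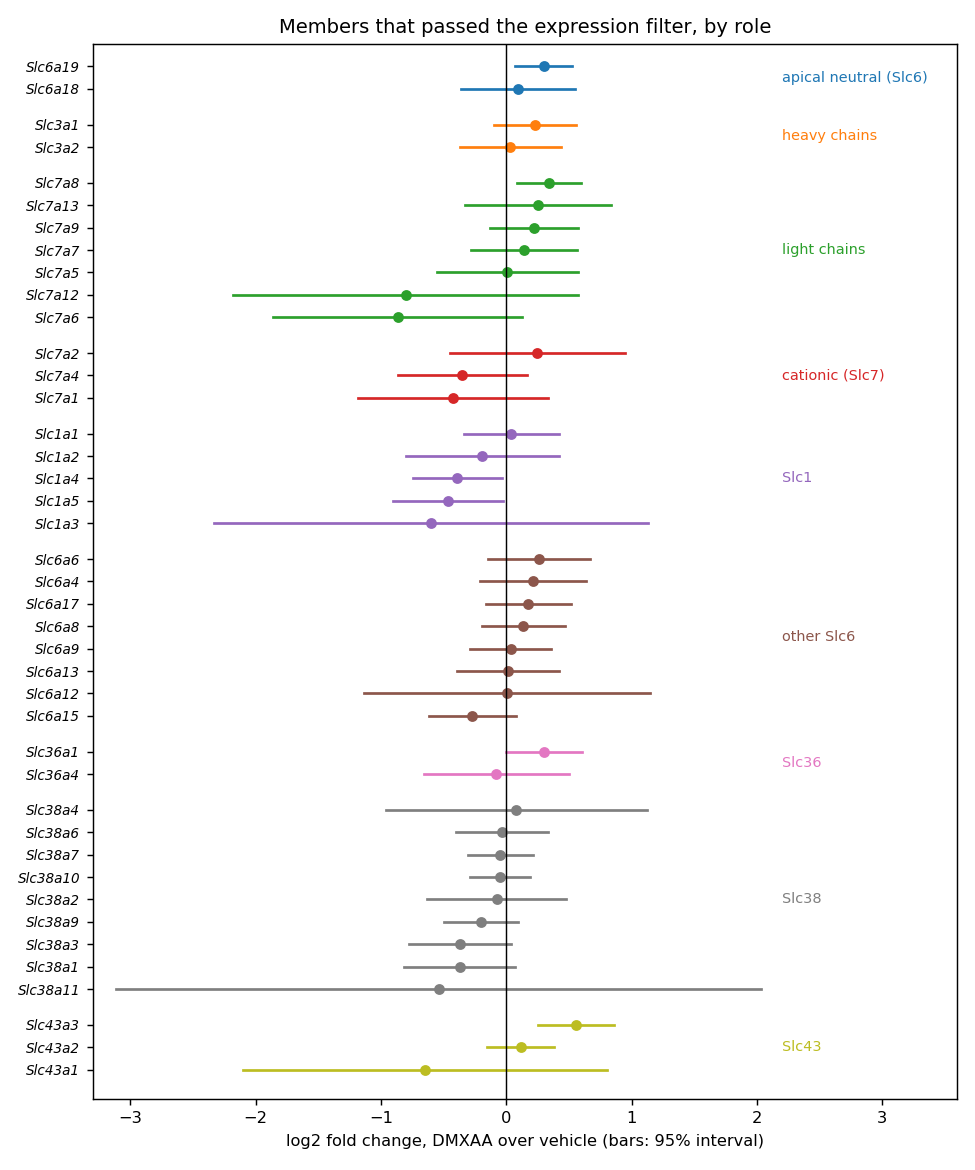
Log2 fold change of the 41 members that passed the expression filter, DMXAA over vehicle (x axis, dots), with 95% intervals (bars), grouped by role down the page. Slc43a3, Slc7a8, Slc6a19, Slc1a4 and Slc1a5 have intervals that do not include 0, and none of the 41 passed adjustment over all genes.

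The brush-border carriers of neutral amino acids come first. Slc6a19, which takes up neutral amino acids with sodium and whose loss causes Hartnup disorder in humans, had 397 and 382 CPM in the DMXAA libraries, against 320, 327 and 303 CPM in the vehicle libraries. Both DMXAA values were above every vehicle value. Its log2 fold change was 0.30 (SE 0.10, unadjusted p = 0.0192, edgeR adjusted p = 0.733), and leaving out any 1 library gave 0.26 to 0.33. On mm10 the gene (ENSMUSG00000021565) lies on the minus strand of chromosome 13 from 73679745 to 73704865. Its neighbour Slc6a18, on the same strand from 73661752 to 73678023, carries glycine and other neutral amino acids at the same membrane in mice. Slc6a18 had 716 and 726 CPM in the DMXAA libraries, against 514, 790 and 723 CPM in the vehicle libraries. Here the groups overlapped, and the log2 fold change of 0.09 (SE 0.19) was -0.08 without vehicle library 1. Per length, Slc6a18 averaged 157 CPM per kb of exon over the 5 libraries and Slc6a19 69.1 CPM per kb.

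In kidney both carriers depend on a partner protein at the membrane, collectrin (Cltrn). Cltrn was at 1342 and 1463 CPM in the DMXAA libraries, against 1166, 1444 and 1225 CPM in the vehicle libraries, so the groups overlapped. Slc6a20a and Slc6a20b, mouse copies of the imino acid carrier gene, are left out by the name rule for their letter suffix. Which copy transports imino acids was not examined. Slc6a20b was at 261 and 250 CPM in the DMXAA libraries, against 192, 233 and 186 CPM in the vehicle libraries (log2 fold change 0.32, SE 0.12, edgeR adjusted p = 0.741). Slc6a20a was rarer, at 15.5 and 11.8 CPM in the DMXAA libraries and 11.4 to 16.6 CPM in the vehicle libraries. Any reads that match both copies would make both levels uncertain, and such sharing was not examined.

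Among heteromeric transporters, the luminal heavy chain Slc3a1 averaged 215 CPM per kb of exon over the 5 libraries and the basolateral heavy chain Slc3a2 54.3 CPM per kb. Slc3a1, whose loss causes cystinuria in humans, had 534 and 536 CPM in the DMXAA libraries, against 393, 512 and 465 CPM in the vehicle libraries. The DMXAA libraries lay above all vehicle libraries, by little in the case of vehicle library 2, and the log2 fold change was 0.23 (SE 0.14, edgeR adjusted p = 0.766). Without vehicle library 1 it was 0.12. The gene (ENSMUSG00000024131, chromosome 17 from 85028376 to 85064236) shares 601 exon bases with Prepl on the other strand, and counts there cannot be told apart unless strand was used. Its light chain Slc7a9, the exchanger of cystine and basic amino acids, had 134 and 134 CPM in the DMXAA libraries, against 94.0, 132 and 119 CPM in the vehicle libraries. Both DMXAA values lay above the vehicle range, by little over vehicle library 2. The log2 fold change of Slc7a9 was 0.22 (SE 0.15), and 0.09 without vehicle library 1. Slc7a9 stayed at a near-constant proportion of Slc3a1, with per-length ratios of 0.213 and 0.211 in the DMXAA libraries and 0.203, 0.219 and 0.216 in the vehicle libraries.

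The second partner of Slc3a1 varied far more. Slc7a13, the light chain for cystine, aspartate and glutamate in the last segment of the proximal tubule (S3), had 950 and 709 CPM in the DMXAA libraries, against 796, 802 and 492 CPM in the vehicle libraries. The groups overlapped, and the interval of its log2 fold change, 0.25, ran from -0.33 to 0.83. Its per-length ratio to Slc3a1 was 1.89 and 1.40 in the DMXAA libraries and 2.15, 1.66 and 1.12 in the vehicle libraries. Slc7a13 (ENSMUSG00000041052, chromosome 4 from 19818725 to 19842218) was the member with the highest level per length, at 387 ± 79.4 CPM per kb in DMXAA and 325 ± 83.0 CPM per kb in vehicle (mean ± SD). Slc3a1 followed at 236 ± 0.636 CPM per kb in DMXAA and 201 ± 26.4 CPM per kb in vehicle, and Slc7a13 was above it in every library. The 5 markers of S3 summed to 4010 and 3556 CPM in the DMXAA libraries and 3239, 4368 and 3175 CPM in the vehicle libraries, also with overlapping groups.

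On the basolateral side, the heavy chain Slc3a2 had 188 and 200 CPM in the DMXAA libraries, against 148, 206 and 216 CPM in the vehicle libraries, and the groups overlapped. Its light chain Slc7a7, which exports basic amino acids and whose loss causes lysinuric protein intolerance in humans, had 206 and 205 CPM in the DMXAA libraries, against 142, 216 and 201 CPM in the vehicle libraries. For both genes the vehicle range was set by library 1, without which the log2 fold changes were -0.12 and -0.03. Slc7a8, the light chain that exchanges neutral amino acids, had 202 and 237 CPM in the DMXAA libraries, against 168, 171 and 182 CPM in the vehicle libraries. Both DMXAA values were above the vehicle range, with a log2 fold change of 0.34 (SE 0.11, unadjusted p = 0.0162, edgeR adjusted p = 0.724). The estimate was 0.22 to 0.46 when 1 library was left out. Slc7a8 (ENSMUSG00000022180) lies on the minus strand of chromosome 14 from 54722209 to 54781946.

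The other tested light chains had lower mean levels per length. These were 13.3 CPM per kb for Slc7a12, 1.68 for Slc7a6 and 1.22 for Slc7a5. Slc7a5, the large neutral amino acid exchanger of dividing cells, had 5.05 and 4.03 CPM in the DMXAA libraries and 4.06 to 5.27 CPM in the vehicle libraries. Slc7a6, a relative of Slc7a7, had 4.44 and 5.82 CPM in the DMXAA libraries, against 15.0, 6.25 and 6.82 CPM in the vehicle libraries. Its log2 fold change of -0.87 (SE 0.42, edgeR adjusted p = 0.749) was -0.35 without vehicle library 1. Slc7a12, a light chain described from mouse kidney, had 13.1 and 18.9 CPM in the DMXAA libraries, against 8.97, 32.3 and 42.7 CPM in the vehicle libraries, so vehicle library 1 was lowest and library 3 highest. The 95% interval of its log2 fold change, -0.80, ran from -2.18 to 0.57.

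**Figure D2:**
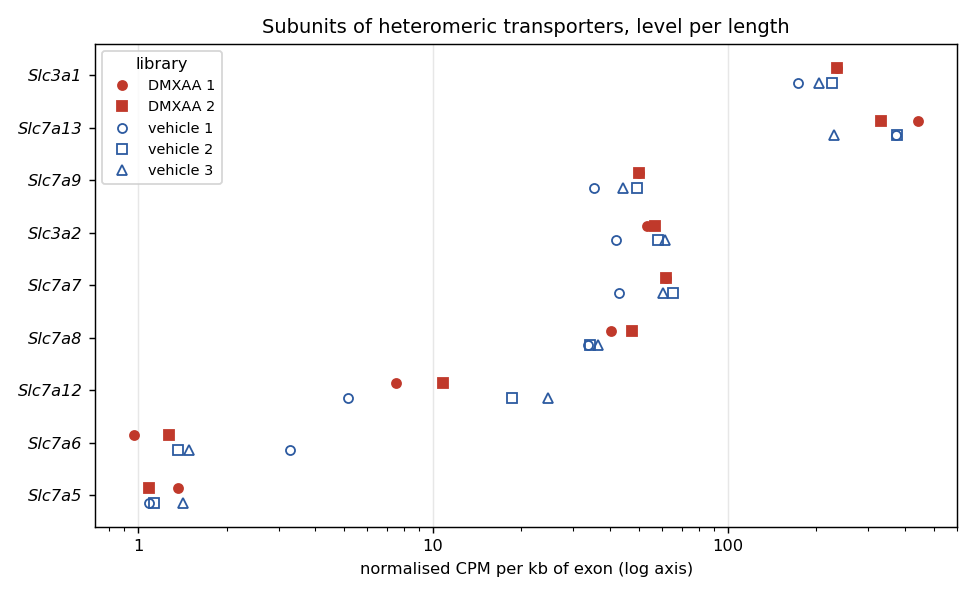
Level per length (normalised CPM per kb of exon, log x axis) of the 2 heavy chains and 7 light chains that passed the filter, 1 point per library, filled red for DMXAA and open blue for vehicle. Slc7a13 and Slc3a1 lie above 100 CPM per kb in every library, and Slc7a9 keeps within 35.11 to 50.04 CPM per kb.

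The start regions of Slc3a1, Slc6a19 and Slc7a8 are shown as those of 3 abundant tubular members with both DMXAA libraries higher than all vehicle libraries. Slc7a9 and Slc36a1 had the same order of groups and are not shown. Each line runs from 250 bases before to 50 bases after the RefSeq start (GRCm38.p6, 5′ to 3′ on the gene's strand), and capitals mark matches to any of 5 motifs searched on both strands. Slc3a1 is chr17:85028097-85028396 on the plus strand, Slc6a19 chr13:73692587-73692886 and Slc7a8 chr14:54781837-54782136, both on the minus strand.
Slc3a1: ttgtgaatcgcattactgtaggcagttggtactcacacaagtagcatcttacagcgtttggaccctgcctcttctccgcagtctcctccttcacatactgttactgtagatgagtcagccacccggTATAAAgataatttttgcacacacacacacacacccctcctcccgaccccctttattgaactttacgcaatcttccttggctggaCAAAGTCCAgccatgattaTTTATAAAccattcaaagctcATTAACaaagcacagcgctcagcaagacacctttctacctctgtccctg
Slc6a19: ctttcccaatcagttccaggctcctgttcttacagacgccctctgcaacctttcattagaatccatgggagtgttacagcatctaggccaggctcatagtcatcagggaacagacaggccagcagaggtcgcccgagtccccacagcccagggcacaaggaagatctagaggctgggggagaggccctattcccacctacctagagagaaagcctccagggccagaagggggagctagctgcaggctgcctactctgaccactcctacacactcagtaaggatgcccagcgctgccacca
Slc7a8: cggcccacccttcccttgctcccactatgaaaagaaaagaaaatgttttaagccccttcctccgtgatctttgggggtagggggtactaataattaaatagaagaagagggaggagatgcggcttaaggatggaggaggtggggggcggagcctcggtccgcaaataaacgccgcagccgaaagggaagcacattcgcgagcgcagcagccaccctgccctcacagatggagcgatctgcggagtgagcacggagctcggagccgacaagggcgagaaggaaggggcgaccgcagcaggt
The Slc3a1 window held CAAAGTCCA, a site of the hepatocyte nuclear factor HNF4, from position -39 (the start being 0), and GTTAAT, the core of an HNF1 site, on the other strand from position 1. The letters TATAAA of the TATA box matched from -124, from -18 and, on the other strand and overlapping the second match, from -20. HNF4 and HNF1 factors are known regulators of proximal tubule genes. Among all 32851 RefSeq windows, CAAAGTCCA was in 0.475%, GTTAAT in 7.10% and TATAAA in 13.6%. The Slc6a19 and Slc7a8 windows held none of the motifs, and the RefSeq start of Slc6a19 lies inside the GENCODE gene, not at its outer end. The remaining motifs were the interferon-stimulated response element core (GAAA, any pair of bases, then GAAA), in 3.44% of all windows, and TGATGNAA, the core of the amino acid response element, in 3.97%. Of the 31 members with a window, 0 held the interferon-stimulated core, 4 held GTTAAT, 1 held CAAAGTCCA, 5 held TATAAA and 3 held TGATGNAA. A match is letters only, and binding was not measured.

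Among the glutamate and neutral amino acid carriers of the Slc1 family, 4 of 5 tested members had estimates below 0, beside 8612 of all 16226 genes tested. Slc1a5, an exchanger of glutamine and other neutral amino acids, had 42.7 and 42.4 CPM in the DMXAA libraries, against 74.6, 52.0 and 49.97 CPM in the vehicle libraries. Its relative Slc1a4, which exchanges alanine, serine and cysteine, had 29.6 and 25.1 CPM in the DMXAA libraries, against 37.0, 40.4 and 30.3 CPM in the vehicle libraries. In both genes the DMXAA libraries lay below every vehicle library, for Slc1a4 by under 1 CPM. The log2 fold change of Slc1a5 was -0.47 (SE 0.18, unadjusted p = 0.0395, edgeR adjusted p = 0.741), and -0.27 without vehicle library 1. That of Slc1a4 was -0.39 (SE 0.15, unadjusted p = 0.0349, edgeR adjusted p = 0.741), and -0.38 without vehicle library 1. Slc1a5 (ENSMUSG00000001918) spans chromosome 7 from 16781340 to 16798274, and Slc1a4 (ENSMUSG00000020142) chromosome 11 from 20302180 to 20332713.

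Slc1a4 was 1 of the 3 members with the amino acid response element core, to which ATF4 binds under amino acid shortage, in the start region; Slc7a7 and the rare Slc7a11 were the others. The window is chr11:20332664-20332963 on the minus strand, and its capitals mark the match, on the opposite strand from position -4.
Slc1a4: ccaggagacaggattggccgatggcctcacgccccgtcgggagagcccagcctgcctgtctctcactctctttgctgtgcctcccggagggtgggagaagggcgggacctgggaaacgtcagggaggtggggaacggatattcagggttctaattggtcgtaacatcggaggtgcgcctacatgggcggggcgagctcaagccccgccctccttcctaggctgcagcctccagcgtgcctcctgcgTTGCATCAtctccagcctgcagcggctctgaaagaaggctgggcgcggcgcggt
Slc1a1, the glutamate and aspartate carrier of the brush border, was the most abundant of the family at 197 and 198 CPM in the DMXAA libraries, against 167, 234 and 175 CPM in the vehicle libraries. Its groups overlapped (log2 fold change 0.04, SE 0.16), and 2631 of its exon bases are shared with a gene on the other strand. Slc1a2, a glutamate carrier best known from astrocytes, had 3.995 and 5.67 CPM in the DMXAA libraries and 4.49 to 6.22 CPM in the vehicle libraries.

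Other Slc6 members had estimates from -0.27 to 0.26, 7 of 8 of them above 0 (46.9% of all genes), with Slc6a12 at 0.003. Their median absolute log2 fold change was 0.156, beside 0.149 over all genes tested. Slc6a6, the taurine carrier, had 593 and 620 CPM in the DMXAA libraries, against 405, 517 and 595 CPM in the vehicle libraries. The groups overlapped through vehicle library 3, and the log2 fold change of 0.26 (SE 0.17) was 0.12 without vehicle library 1. Slc6a8, the creatine carrier, had 274 and 292 CPM in the DMXAA libraries, against 218, 292 and 263 CPM in the vehicle libraries. Slc6a13, which carries GABA, betaine and taurine, had 108 and 121 CPM in the DMXAA libraries, against 91.6, 137 and 112 CPM in the vehicle libraries. Each of these 3 genes was lowest in vehicle library 1. Slc6a12, the betaine carrier induced by high salt in the medulla, was highest there, with 3.72 and 4.58 CPM in the DMXAA libraries, against 6.65, 1.93 and 3.83 CPM in the vehicle libraries. Slc6a15, a carrier of branched-chain amino acids in neurons, had the lowest estimate of the 8, -0.27 (SE 0.14). Both of its DMXAA values, 23.4 and 18.5 CPM, lay below the vehicle values of 28.1, 24.2 and 23.6 CPM, the first by little. With 1 library left out the estimate was -0.44 to -0.11. Slc6a17, Slc6a9 and the serotonin carrier Slc6a4 had estimates of 0.18, 0.04 and 0.21 with overlapping groups.

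**Figure D3:**
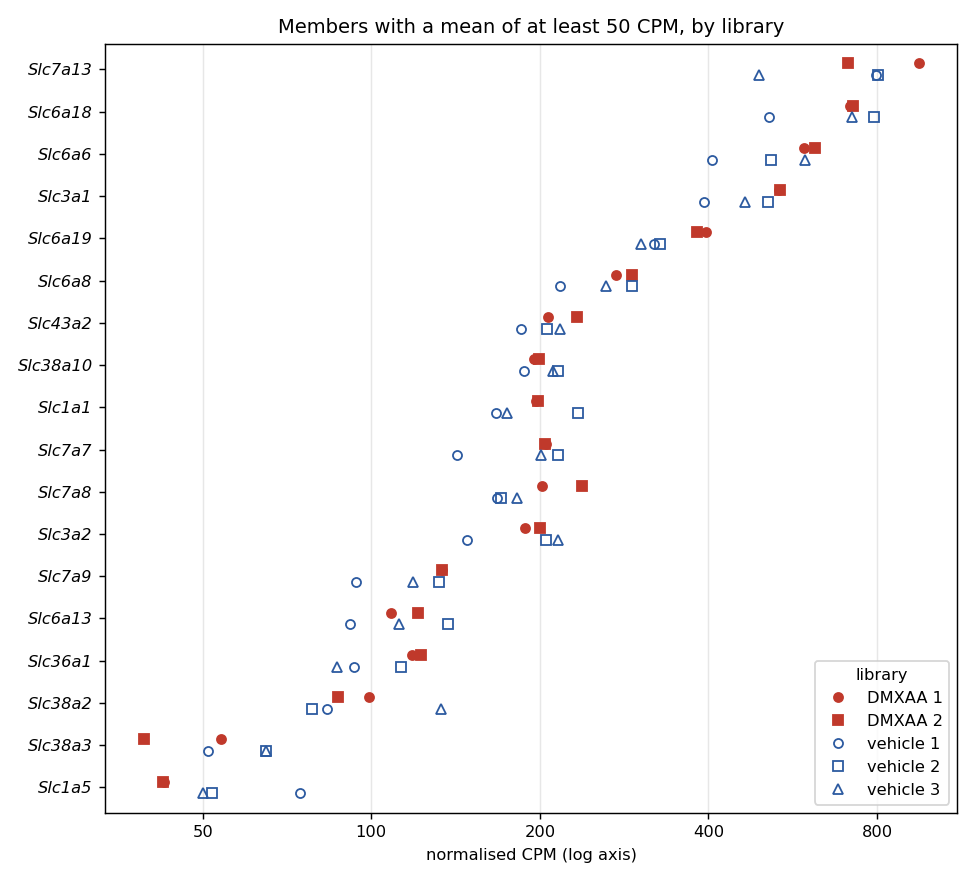
Normalised CPM (log x axis) of the 18 members with a mean of at least 50 CPM, 1 point per library, filled red for DMXAA and open blue for vehicle, ordered by mean. Vehicle library 1 (open circle) is lowest in 12 of the 18, and the red points of Slc3a1, Slc6a19, Slc7a8, Slc7a9 and Slc36a1 lie right of all blue ones. Thus 5 of the 18 lay above the vehicle range and 1 below it. Of all 4155 genes with such a mean, 903 lay above it and 372 below it.

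Among the proton-coupled, sodium-coupled and uniporter families, Slc43a3 had the smallest p of all members. Slc43a3, which carries purine nucleobases rather than amino acids, had 45.0 and 46.6 CPM in the DMXAA libraries, against 27.4, 30.3 and 35.8 CPM in the vehicle libraries. All vehicle values were lower, the log2 fold change was 0.56 (SE 0.13, unadjusted p = 0.00364, edgeR adjusted p = 0.688), and leaving out any 1 library gave 0.46 to 0.67. The gene (ENSMUSG00000027074) spans chromosome 2 from 84936579 to 84958509. Its relatives Slc43a2, the basolateral uniporter of branched-chain amino acids, and Slc43a1 had overlapping groups. Slc43a2 was at 207 and 233 CPM in the DMXAA libraries and 185 to 218 CPM in the vehicle libraries. Slc43a1 was at 0.943 and 1.29 CPM in the DMXAA libraries and 0.625 to 2.76 CPM in the vehicle libraries. That Slc43a3 differs from its relatives was not tested.

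Slc36a1, the proton-coupled carrier of small neutral amino acids found on lysosomes, had 118 and 123 CPM in the DMXAA libraries, against 93.3, 113 and 86.9 CPM in the vehicle libraries. The groups did not overlap, with a log2 fold change of 0.30 (SE 0.13, edgeR adjusted p = 0.741). Slc36a4 was at 17.8 and 15.8 CPM in the DMXAA libraries and 12.1 to 20.8 CPM in the vehicle libraries. In the sodium-coupled Slc38 family, 8 of 9 tested members had estimates below 0, beside 8612 of all 16226 genes tested. The family median was -0.08. Of the 8, Slc38a2, Slc38a6, Slc38a7 and Slc38a11 changed sign in some fits with 1 library left out. Slc38a3, which takes up glutamine from the blood for ammonia formation in the proximal tubule, had 53.9 and 39.3 CPM in the DMXAA libraries, against 51.1, 64.8 and 64.8 CPM in the vehicle libraries. Its groups overlapped only through vehicle library 1, and the log2 fold change of -0.37 (SE 0.17, edgeR adjusted p = 0.749) was -0.48 without that library. Slc38a1 and Slc38a9, the lysosomal arginine sensor of the mTORC1 pathway, lay below the vehicle range in both DMXAA libraries, with estimates of -0.37 (SE 0.18) and -0.20 (SE 0.12). Slc38a2, the stress-inducible carrier, had 99.1 and 87.3 CPM in the DMXAA libraries, against 83.4, 78.3 and 133 CPM in the vehicle libraries. Slc38a10, the most abundant Slc38 member, had 195 and 200 CPM in the DMXAA libraries and 187 to 216 CPM in the vehicle libraries. Slc38a4, Slc38a6 and Slc38a7 had estimates of 0.08, -0.03 and -0.05.

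The cationic amino acid carriers of the Slc7 family were rare. Slc7a1, the widespread arginine and lysine carrier, had 14.8 and 15.0 CPM in the DMXAA libraries, against 27.5, 11.9 and 20.4 CPM in the vehicle libraries. Slc7a2, which is inducible in macrophages, had 7.38 and 7.51 CPM in the DMXAA libraries, against 8.60, 4.38 and 5.82 CPM in the vehicle libraries. Both genes had overlapping groups. Slc7a4, whose transport function is not established, had 4.22 and 3.83 CPM in the DMXAA libraries, against 4.92, 4.66 and 5.82 CPM in the vehicle libraries, below the vehicle range in both.

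Vehicle libraries differed among themselves by amounts similar to those between groups. Of the 18 members with a mean of at least 50 CPM, 12 were lowest in vehicle library 1 and 1, Slc1a5, was highest there. Of the 23 rarer members that passed the filter, 12 were highest in vehicle library 1 and 4 were lowest there. The boundary of 50 CPM was chosen after the values were seen. The median absolute log2 difference over members was 0.171 between the DMXAA libraries, 0.258 to 0.341 between pairs of vehicle libraries, and 0.176 to 0.402 between DMXAA and vehicle libraries. Over all genes tested the same pairs gave 0.133, 0.190 to 0.260, and 0.171 to 0.226.

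**Figure D4:**
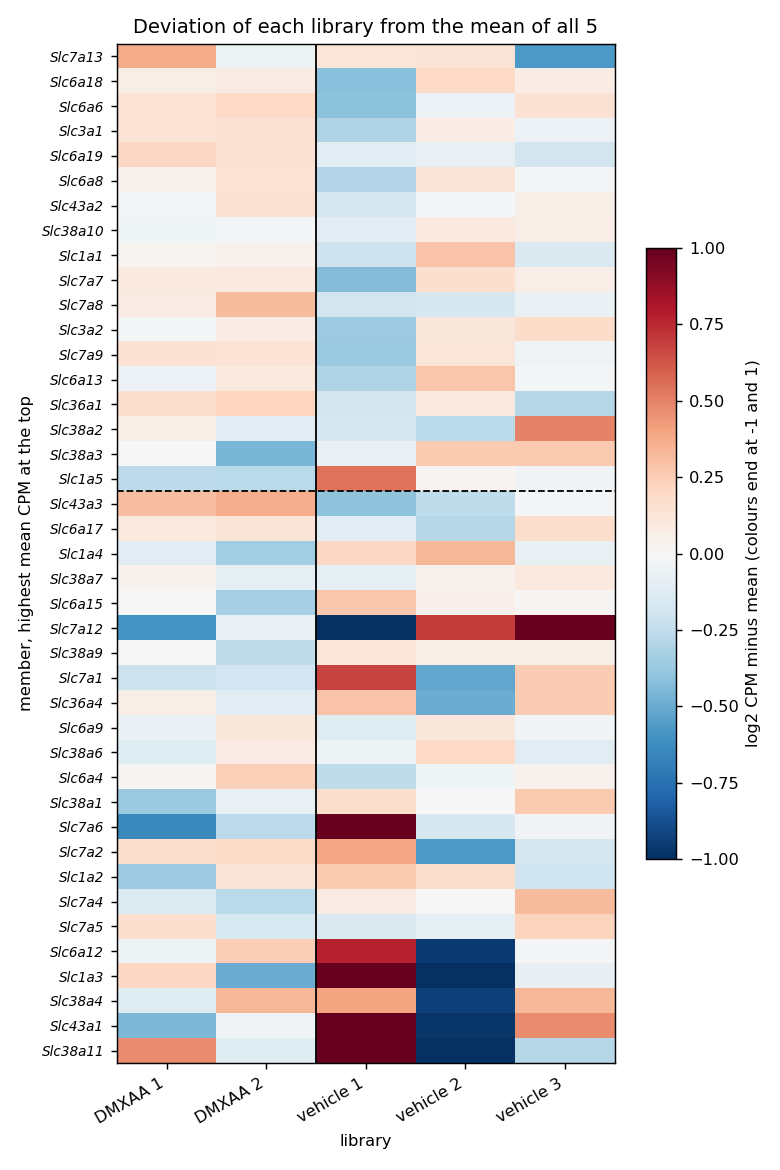
Colour map of log2 CPM minus the mean of the 5 libraries, for the 41 members that passed the filter (rows, highest mean CPM at the top) in each library (columns). Vehicle library 1 is blue in most rows above the dashed line at 50 CPM and red in many rows below it, including Slc7a6, Slc1a3 and Slc38a11.

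Several rare members were detected mainly in vehicle library 1. Slc36a2, a proton-coupled carrier known in mouse as a surface marker of brown and beige fat cells, had 2 and 2 counts in the DMXAA libraries, against 152, 1 and 5 counts in the vehicle libraries. That was 8.22 CPM in vehicle library 1, or 60.3 times the mean of the other 4. Slc6a2, the noradrenaline carrier of sympathetic nerves, had 0 counts in both DMXAA libraries, against 36, 0 and 0 counts in the vehicle libraries. With 3 counts as the limit that a 0 leaves, and only counting error considered, the bound was 0.149 to 0.171 CPM per library. The brown fat gene Ucp1 was at 57.4 CPM in vehicle library 1 and at 0 to 0.444 CPM in the other 4 libraries. Cidea and Adipoq, genes of brown fat and of fat cells in general, were at 30.6 and 36.8 CPM there. Both were at 0 in the DMXAA libraries and below 1 CPM in vehicle libraries 2 and 3.

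Slc38a11, a little-studied Slc38 member, had 1.11 and 0.696 CPM in the DMXAA libraries, against 3.19, 0.114 and 0.610 CPM in the vehicle libraries. Slc1a3, a glutamate carrier best known from glia, had 3.55 and 2.14 CPM in the DMXAA libraries, against 8.65, 1.36 and 2.88 CPM in the vehicle libraries. Without vehicle library 1 the log2 fold changes of these genes, -0.54 and -0.60, were 1.28 and 0.41, with edgeR adjusted p of 0.604 and 0.795. Slc7a10, a carrier also known from fat cells, fell short of the count minimum with 7 counts in vehicle library 1, 1 in DMXAA library 2 and 0 in the other libraries. The part of the fat and urothelial transcripts in these values was not tested.

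**Figure D5:**
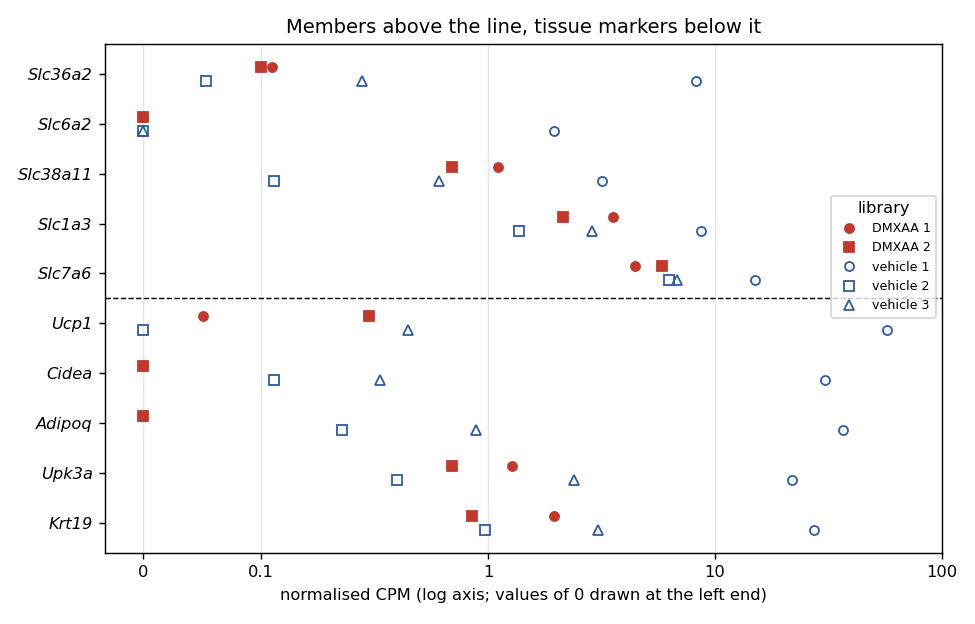
Normalised CPM (log x axis, values of 0 at the left end) of 5 members above the dashed line and of fat (Ucp1, Cidea, Adipoq) and urothelial (Upk3a, Krt19) marker genes below it, 1 point per library, filled red for DMXAA and open blue for vehicle. The open circle of vehicle library 1 is the rightmost point in every row.

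Marker levels also lay apart between the groups for some cell types, though edgeR called 0 of all genes tested. The 5 markers of the first tubule segment (S1) summed to 6945 and 7618 CPM in the DMXAA libraries, against 5810, 6751 and 5472 CPM in the vehicle libraries, with 5 of 5 present and every summed DMXAA value above the vehicle range. Of the 5 S1 markers edgeR called 0 and DESeq2 called 3, beside 0.296% of the genes DESeq2 tested. The 3 were Slc5a12, Slc2a2 and Slc5a2 (DESeq2 adjusted p = 0.000176, 0.0115 and 0.0218). The S3 markers overlapped between the groups, as given above, and neither method called any of them. Of 6 markers of the loop and distal tubule, whose sums overlapped between the groups, DESeq2 called 1. That was Pvalb, lower in DMXAA (log2 fold change -0.98, DESeq2 adjusted p = 0.0171). The 5 red cell markers summed to 52.3 and 29.9 CPM in the DMXAA libraries, against 281, 170 and 73.3 CPM in the vehicle libraries. All 5 lay below the vehicle range in both DMXAA libraries, as did 12.3% of all genes, and neither method called any of the 5. The part of these marker levels in the values of the transporters was not tested.

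The remaining members were near the limit of detection. Besides Slc36a2 and Slc6a2, 5 members did not pass the filter. Slc6a14, Slc7a11, Slc7a3, Slc6a7 and Slc1a7 had at most 11 counts in any library. Of the 13 genes under the count minimum, 4 had no count in any library. Counts were concentrated in few genes: the 5 members with most counts held 54.9% of all member counts, and the 10 with most held 75.6%.

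In 3 further lists of amino acid handling genes, edgeR and DESeq2 called 0 genes each. Among 24 further transport genes of the tubule, 4 were higher and 1 lower at an unadjusted p below 0.05 (3.89% and 2.65% of all genes), with a median log2 fold change of 0.11. Those with small p included Enpep, a brush-border aminopeptidase, and the mitochondrial basic amino acid carrier Slc25a29. Enpep was at 184 and 233 CPM in the DMXAA libraries, against 148, 153 and 141 CPM in the vehicle libraries. Slc25a29 was at 4.72 and 3.88 CPM in the DMXAA libraries, against 6.81, 6.71 and 6.99 CPM in the vehicle libraries. The aromatic amino acid uniporter Slc16a10, basolateral in the tubule, was at 73.8 and 83.9 CPM in the DMXAA libraries, against 53.1, 68.1 and 68.9 CPM in the vehicle libraries (log2 fold change 0.32, SE 0.14, edgeR adjusted p = 0.741).

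Of 43 enzymes of amino acid metabolism, 2 were higher and 0 lower at an unadjusted p below 0.05, with a median of 0.01. These were Ddo, which oxidises D-aspartate, at 59.3 and 59.9 CPM in the DMXAA libraries, against 49.1, 48.3 and 44.0 CPM in the vehicle libraries, and Gatm, the first enzyme of creatine synthesis, at 737 and 928 CPM in the DMXAA libraries, against 624, 597 and 662 CPM in the vehicle libraries. The next smallest p belonged to the alanine aminotransferase Gpt, at 13.0 and 10.0 CPM in the DMXAA libraries and 12.3 to 21.1 CPM in the vehicle libraries. Of 27 genes of amino acid sensing, 3 were higher and 0 lower, with a median of -0.01. Castor2, of the arginine sensor family, was at 136 and 155 CPM in the DMXAA libraries, against 112, 114 and 106 CPM in the vehicle libraries. The stress transcription factor Ddit3 was at 24.3 and 22.9 CPM in the DMXAA libraries, against 18.8, 15.7 and 13.8 CPM in the vehicle libraries. Mtor, the growth kinase that amino acids activate, was at 255 and 254 CPM in the DMXAA libraries, against 209, 213 and 194 CPM in the vehicle libraries. Their edgeR adjusted p was 0.724 for each of the 3 genes.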

How the data were processed

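Whole-kidney RNA of 5 samples was sequenced, and the authors deposited raw counts for each Ensembl gene ID. The submitters' processing notes list mm10 as the build and, as tools, DESeq2 1.16.1, Subread with featureCounts, and HISAT2. The sources used here do not give the strand setting, the annotation or the handling of multiply matching reads. Columns CO1 to CO3 were read as vehicle and XA1 and XA2 as DMXAA replicates. The labels name both a TruSeq and a NEBNext kit without saying which sample had which, so no library batch could be tested. GENCODE M21 gave symbols for 99.9% of IDs, positions and exon lengths; start regions are RefSeq's (GRCm38.p6), with 31 of 48 members matched.

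Counts were tested with edgeR 4.0.16 in R 4.3.3 (quasi-likelihood F test, two-sided, TMM scaling, default filter, group as the only term, 16226 genes). A call required p below 0.05 after Benjamini-Hochberg adjustment. DESeq2 1.42.0 was an alternative. CPM are TMM-normalised; SE and 95% intervals come from the fit. The procedure was checked on simulated counts. Members and lists were chosen with earlier results of these data known. Named were the 3 marker genes, the brush-border, heavy-chain and tested light-chain genes, the 10 highest levels per length, the 8 smallest p, the 6 largest changes, the 4 widest vehicle ranges, members failing the filter, the 3 smallest p of each list, and Slc6a20a, Slc6a20b, Cltrn and Slc16a10; some genes of this rule are not reported here. Other members complete their families and were named after their values were seen. Each pair of libraries differed beyond sampling noise, with chi-square over its degrees of freedom at 7.35 to 38.5. Alternatives were other scalings, filters and dispersion settings, a length and GC offset, the replicate number as a block, and each library left out.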

Additional observations from a re-analysis of the deposited data

How the results depend on the processing

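Under all 15 alternatives 0 members were called, and 5 libraries limit what could be. DESeq2 called 54 genes in all and counted 8 members at an unadjusted p below 0.05, beside 3.54% of all genes. Without an expression filter edgeR called 34 genes and counted 10 members at that p, beside 5.72% of all genes. Each of these fits held 48 members. The labels give both groups the numbers 1 and 2 but do not tie them to shared animals or days. With the replicate number as a block edgeR called 4 genes, and also 4 with the length and GC offset added. Deviations of same-numbered libraries correlated at 0.075 and 0.081; with 2 DMXAA libraries these values are tied by centring, and pairing is not shown by them or by the labels. Without vehicle library 1 edgeR called 2 genes. Without vehicle library 2 it counted 12 of 41 members at an unadjusted p below 0.05, beside 11.8% of all genes. Leaving out 1 library each gave 16 to 21 members without overlap, beside 37.1% to 47.8% of all genes. Without vehicle library 1 or 2 the number without overlap was 21 and 20, beside 42.8% and 45.1% of all genes.

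The members' median of 0.01 was -0.01 in DESeq2, -0.015 without a filter and -0.056 to 0.046 with 1 library left out. Signs changed for several members, Slc38a11 and Slc1a3 by the widest ranges. Slc6a12 was -0.002 with at least 1 CPM in 2 samples and -0.005 without the 20 most abundant and mitochondrial genes. With the replicate block Slc1a1 was -0.002, Slc36a4 0.077 and Slc38a2 0.20; with the length and GC offset as well they were -0.033, 0.002 and 0.13, and Slc38a7 was 0.01. With 1 library left out, the range was -0.06 to 0.21 for Slc1a1, -0.46 to 0.05 for Slc1a2, -1.02 to 0.41 for Slc1a3, -0.291 to 0.044 for Slc36a4, -1.07 to 1.28 for Slc38a11, -0.21 to 0.20 for Slc38a2, -0.24 to 0.30 for Slc38a4, -0.14 to 0.071 for Slc38a6, -0.107 to 0.016 for Slc38a7, -0.12 to 0.14 for Slc3a2, -0.33 to 0.52 for Slc6a12, -0.12 to 0.17 for Slc6a13, -0.075 to 0.223 for Slc6a18, -0.06 to 0.13 for Slc6a9, -0.16 to 0.16 for Slc7a5 and -0.029 to 0.260 for Slc7a7. The cause was not tested. A DMXAA library left alone was assumed to vary like the vehicle libraries.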
